A study of Gallus gallus with 6 samples.

Results

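Transcription factors among the genes that differed between laying and non-laying hens were described in the magnum, the oviduct segment that secretes egg white. They were taken from the 540 genes that the authors had called as different, at a fold change over 3 and an adjusted p under 0.05, between the 2 groups compared here. A listed gene was included when its description named a transcription factor class (homeobox, helix-loop-helix, forkhead, zinc finger, SRY-box, nuclear receptor or the words transcription factor) or when its symbol began with that of such a family. This gave 11 of the 19152 genes in the deposited table, 10 by description and 8 by symbol. Of these, 6 were higher in laying hens (BHLHE23, SHOX2, NR4A2, ATF4, PIKFYVE and ZZEF1) and 5 were lower (E2F7, E2F8, MYB, MYBL1 and SOX30). PIKFYVE and ZZEF1 entered through zinc finger domains but are not known as DNA-binding transcription factors, so the name of the group holds for the other members only.

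The magnum of 3 laying and 3 non-laying hens of strain Hy-line (Hy-Line white in the methods) had been sampled, and each hen gave 1 stranded mRNA library. The laying hens were 35 weeks old and had an egg in the magnum, at 3 h after ovulation. The non-laying hens were 35 to 60 weeks old, came from different flocks and had an atrophied oviduct at necropsy, so laying status, flock and, in part, age cannot be told apart. No treatment is stated for any hen, and the strain was the same in both groups.

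Transcription factors bind DNA and raise or lower the transcription of other genes. In the magnum, estrogen and progesterone drive tubular gland cells to differentiate and to make egg-white proteins, and ciliated cells line the lumen. After laying stops the glands regress, and the tissue that remains holds a different mixture of cells. In such bulk samples, fewer cells of a type and less RNA per cell cannot be told apart.

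The libraries held between 18840068 and 25763750 counts. A single gene, listed without a name, took 49.4% to 53.6% of the counts in laying hens and 1.33% to 36.5% in non-laying hens. Library sizes were therefore scaled by edgeR's TMM method, which sets the bulk of genes to the same level in each library, with factors from 0.4449 to 0.6216 in laying and from 1.192 to 2.94 in non-laying hens, and levels are given as CPM, a rate of counts relative to that scaled size. Without that scaling the median log2 fold change of all tested genes was -1.80, so every level and fold change below is relative to the bulk of genes. Values of 3 counts or fewer lie at the detection limit, which was 0.187 to 0.269 CPM in laying and 0.0542 to 0.101 CPM in non-laying hens, and these limits cover counting error only. Nothing in the labels says how the hens were otherwise related, and fold changes are laying over non-laying with a standard error (SE) from edgeR.

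The members were chosen by the authors' fold changes and adjusted p-values in this same contrast, so their differences are a description and carry no test. By edgeR at the study's thresholds, 10 of the 11 had enough counts to be tested, and 4 were past the thresholds higher and 5 lower. Over all 12499 tested genes the shares past the thresholds were 1.28% higher and 3.70% lower. ATF4 was tested and was not past the thresholds, and SHOX2 had too few counts. The count of 9 fell to 1 (E2F7) without laying hen 1 or without laying hen 2, and to 5 without non-laying hen 1. In the fits without laying hen 1 and without laying hen 2, 12 and 7 of all genes were called higher and 8 and 9 lower. Without non-laying hen 1, 58 of all genes were called higher and 227 lower. The log2 fold change of E2F8 stayed close without either laying hen (-2.51 and -2.46, against -2.62 with all hens). Others moved further without laying hen 2, as SOX30 (-7.45 against -4.70), MYBL1 (-4.19 against -3.35) and NR4A2 (2.03 against 2.83). In CPM the 2 groups did not overlap for any of the 11, whereas 15.1% of all tested genes were without overlap with laying hens higher and 17.6% with laying hens lower.

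**Figure D1:**
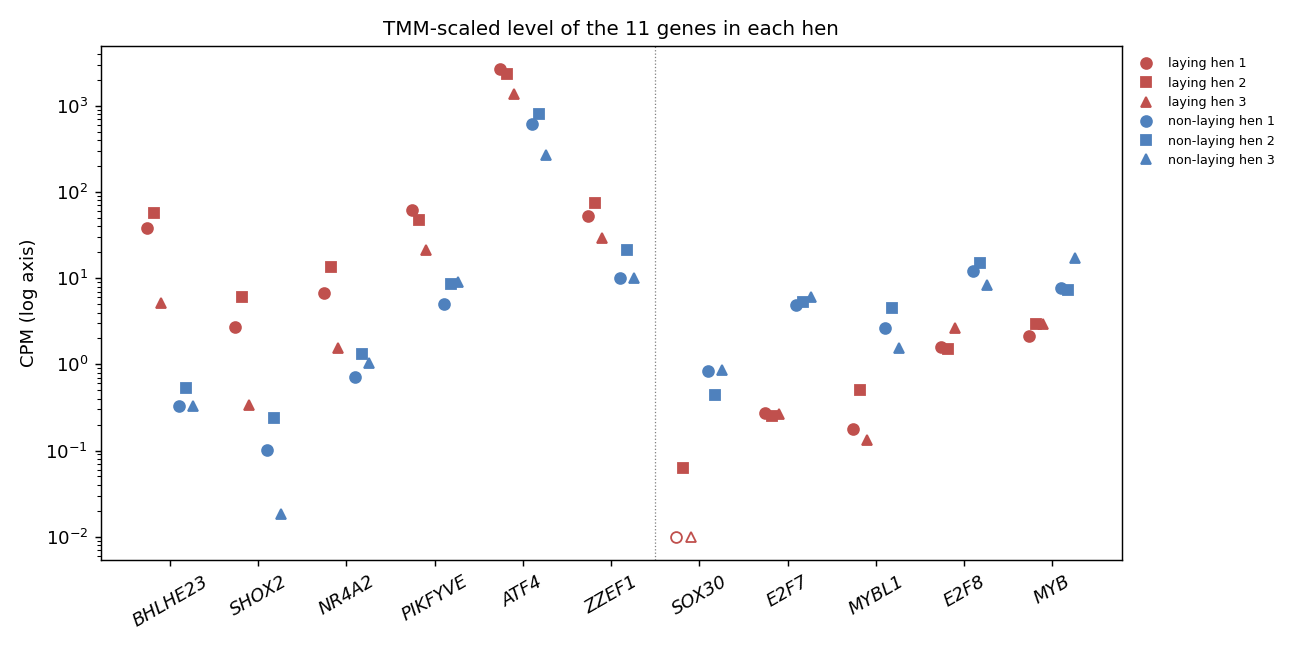
TMM-scaled level (CPM, log axis) of each of the 11 genes in each of the 6 hens, with laying hens in red, non-laying hens in blue and the marker shape giving the hen number. Open markers at the bottom stand for 0 counts, which only SOX30 had, in laying hens 1 and 3. In the 6 genes left of the dotted line the red triangle of laying hen 3 lies lowest among the laying hens.

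BHLHE23 encodes a basic helix-loop-helix repressor of the OLIG-related family, known in mouse from retinal bipolar cells (chromosome 20, 8677346 to 8681420, genome build Galgal 5.0, as are all positions here). It had 38.5, 57.3 and 5.21 CPM in laying hens 1, 2 and 3, against 0.332, 0.539 and 0.325 CPM in non-laying hens 1, 2 and 3. The non-laying hens held 13, 16 and 18 counts, so the gene was detected at a low level in each of them. Laying hen 3 was far below the other laying hens but still above every non-laying hen. The log2 fold change was 6.42 (SE 0.87), the largest in size of the 10 fitted genes, and 5.79 without laying hen 2. BHLHE23 was also the only one of the 6 higher genes whose groups stayed apart in the deposited RPKM values (counts relative to gene length and library total), which take no account of the dominant gene. It had 4.21, 8.73 and 0.767 RPKM in laying and 0.14, 0.158 and 0.234 RPKM in non-laying hens, while 0.456% of all tested genes were apart in that direction.

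SHOX2, a homeobox factor needed in mouse for limb growth and the sinoatrial node (chromosome 9, 22707663 to 22711730), was close to the detection limit in most hens. The counts were 30, 96 and 5 in laying hens 1, 2 and 3, against 4, 7 and 1 in non-laying hens 1, 2 and 3. Laying hens 1 and 2 stood out, and laying hen 3 had fewer counts than non-laying hen 2. The CPM values were 2.69, 5.99 and 0.334 in laying and 0.102, 0.236 and 0.0181 in non-laying hens. With all genes of at least 1 count in the fit, its log2 fold change was 4.74 (SE 1.04), and where it could be tested with a hen left out it was between 4.16 (without non-laying hen 3) and 5.66 (without non-laying hen 2). In RPKM the groups overlapped, because laying hen 3 (0.21) was below non-laying hen 2 (0.294).

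NR4A2 encodes an orphan nuclear receptor that is switched on quickly by many stimuli and maintains dopaminergic neurons in mouse (chromosome 7, 36220884 to 36228064). Its level was 6.81, 13.4 and 1.54 CPM in laying hens 1, 2 and 3, against 0.716, 1.31 and 1.03 CPM in non-laying hens 1, 2 and 3. Laying hen 3 was only slightly above non-laying hen 2, and the log2 fold change of 2.83 (SE 0.70) was 2.03 without laying hen 2. Its count in laying hen 2, 215, was the only value of the 11 genes that was not a whole number in the deposited table. NR4A2 was past the thresholds with laying hen 3 left out, and not with any other hen left out.

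The same hen was low in all members that were higher with laying. Among the laying hens, hen 3 was lowest in 6 of these 6 genes, and laying hen 2 the highest in 4. Laying hen 3 was lowest in 38.6% of all tested genes and in 80.0% of the 160 genes called higher, so its place is shared with most of that group. The spread was wide in 3 of the genes, where the highest laying hen had 17.9 (SHOX2), 11 (BHLHE23) and 8.73 (NR4A2) times the level of the lowest. The median of this ratio over the genes called higher was 2.26. AVD encodes the egg-white protein avidin and was the only 1 of 9 tubular gland markers with an identifier, through the authors' list. Among the laying hens it was also lowest in hen 3. In CPM it was highest in hen 1, whereas SHOX2, BHLHE23 and NR4A2 were highest in hen 2. That contrast depends on the scaling. In RPKM AVD had 1516, 1705 and 856 in laying hens 1, 2 and 3, so it was highest in hen 2 as well. AVD had 2000, 1610 and 838 CPM in laying hens 1, 2 and 3, against between 2.26 and 3.03 CPM in non-laying hens. The part of gland cell content in these differences was not tested.

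ATF4 encodes a leucine zipper factor whose protein is made when translation is slowed by amino acid shortage or endoplasmic reticulum stress, and which switches on amino acid synthesis and transport (chromosome 1, 50633582 to 50636513). Unlike the other members it was abundant in every hen. It ranked 26, 26 and 38 of all genes by RPKM in laying hens 1, 2 and 3, against 86, 56 and 133 in non-laying hens 1, 2 and 3. The CPM values were 2667, 2342 and 1374 in laying and 614, 800 and 272 in non-laying hens, without overlap. The log2 fold change was 1.92 (SE 0.51). In RPKM, ATF4 was at 1049, 1243 and 705 in laying and at 907, 815 and 686 in non-laying hens, so that laying hen 3 fell below 2 non-laying hens and the ratio of the group means was 1.24.

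Of 32 known target genes of ATF4, 8 had an identifier here, all because they were in the authors' list, so they are no independent evidence of direction. All 8 were called higher, with a median log2 fold change of 2.70, against 1.28% of all tested genes. ASNS, the asparagine synthetase, had a log2 fold change of 2.28 (SE 0.44). The serine synthesis enzymes PHGDH, PSAT1 and PSPH were at 2.68 (SE 0.45), 2.34 (SE 0.55) and 2.73 (SE 0.42). The cystine carrier SLC7A11 was at 3.72 (SE 0.82) and the neutral amino acid carrier SLC1A4 at 3.05 (SE 0.47). ALDH1L2, a mitochondrial folate enzyme, and SESN2, a leucine sensor, were at 2.57 (SE 0.29) and 2.79 (SE 0.47). On unscaled total counts 1 of the 8 was called, with a median of 1.05. Of the 8, 4 were called without non-laying hen 1 and 0 without laying hen 1 or without laying hen 2, where the median stayed at 2.60 and 2.68 and 12 and 7 of all genes were called higher.

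**Figure D2:**
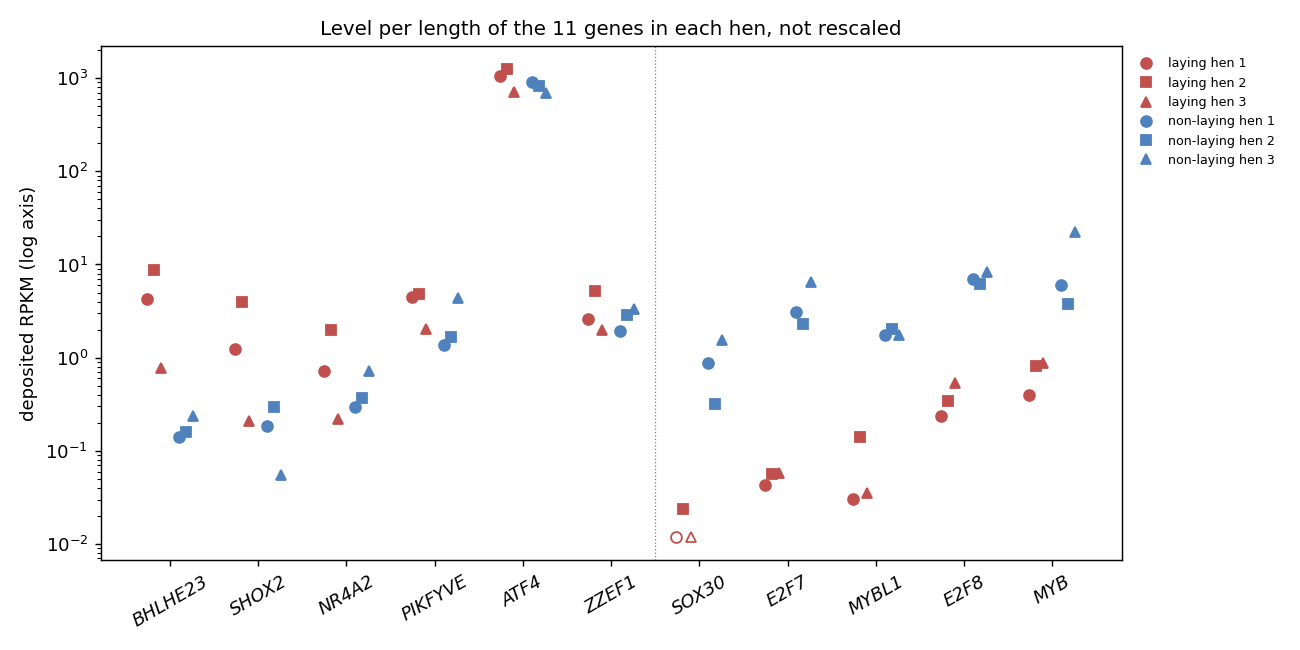
Deposited RPKM (log axis) of the 11 genes in each hen, not rescaled, with symbols as in the plot of CPM and open markers for 0. On this scale the groups overlap for ATF4, NR4A2, PIKFYVE, SHOX2 and ZZEF1, while BHLHE23 stays higher and the 5 genes right of the dotted line stay lower in every laying hen.

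PIKFYVE, the lipid kinase that makes the phosphoinositide of late endosomes and lysosomes (chromosome 7, 13866744 to 13924920), had 62.0, 47.9 and 21.4 CPM in laying hens 1, 2 and 3. The non-laying hens 1, 2 and 3 had 5.04, 8.62 and 9.12 CPM, well apart from the laying hens. The log2 fold change was 2.53 (SE 0.42). In RPKM non-laying hen 3, at 4.32, was above laying hen 3, at 2.05, and the groups overlapped. ZZEF1, a large protein with a ZZ-type zinc finger that binds histone tails and an EF-hand (chromosome 19, 3181799 to 3232934), had 52.6, 74.4 and 29.3 CPM in laying and 10.1, 21.3 and 10 CPM in non-laying hens. Laying hen 3 came closest to non-laying hen 2, and the log2 fold change was 1.92 (SE 0.42). Of the 6 higher genes ZZEF1 had the smallest ratio of mean RPKM, 1.21.

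E2F7 and E2F8 encode the atypical E2F proteins, which bind the same sites as the activating E2F factors without a DP partner and repress cell cycle genes late in S phase. E2F7 (chromosome 1, 38293246 to 38308943) was at or just above the detection limit in laying hens, with 3, 4 and 4 counts in hens 1, 2 and 3. In non-laying hens 1, 2 and 3 it had 193, 159 and 335 counts. On the CPM scale these were 0.269, 0.25 and 0.267 in laying and 4.94, 5.35 and 6.05 in non-laying hens. The highest over the lowest hen was 1.08 in laying and 1.23 in non-laying hens. In laying hens 1, 2 and 3 the counting ranges were far wider, at 0.0555 to 0.786, 0.0681 to 0.64 and 0.0728 to 0.684 CPM. The closeness of the laying hens is therefore no measure of how well they agree. The log2 fold change was -4.36 (SE 0.40), and E2F7 was the only member that stayed past the thresholds with any single hen left out.

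E2F8 (chromosome 5, 1667059 to 1676014) was low but detected in laying hens, at 1.61, 1.5 and 2.61 CPM in hens 1, 2 and 3. The non-laying hens 1, 2 and 3 had 12, 15.0 and 8.29 CPM. The groups were apart, and the log2 fold change was -2.62 (SE 0.36). The proportion of the pair differed as well: per 100 E2F8 counts of the same library, E2F7 had 16.7, 16.7 and 10.3 counts in laying and 41.2, 35.7 and 73.0 counts in non-laying hens. The laying values rest on 3, 4 and 4 counts of E2F7 in hens 1, 2 and 3, so the counting error of each is wide. In CPM, non-laying hen 3 had the highest E2F7 and the lowest E2F8 of its group. The place of E2F8 depends on the scaling: its counts in non-laying hens 1, 2 and 3 were 468, 446 and 459. In RPKM it was highest in non-laying hen 3, at 8.38 against 7.06 and 6.15.

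Of 28 target genes of the E2F factors, 16 had an identifier, again all through the authors' list, and 14 were called lower, against 3.70% of all tested genes. Their median log2 fold change was -2.95. RRM2 and TK1, which supply deoxynucleotides, were at -6.09 (SE 0.94) and -4.82 (SE 0.88). The helicase subunits MCM2, MCM3, MCM5 and MCM6 lay between -3.55 and -2.44. CCNE2 (-3.33, SE 0.93) and CCNA2 (-2.26, SE 0.62), cyclins of S phase entry and passage, were not called. Without non-laying hen 1, 9 of the 16 were called. None was called without laying hen 1 or without laying hen 2, where the median stayed at -2.94 and -2.93 and 8 and 9 of all genes were called lower.

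The proliferation markers did not follow E2F7 across the non-laying hens. The summed level of the 6 of 9 markers with an identifier was 3.81 to 9.02 CPM in laying hens and 168, 258 and 55.2 CPM in non-laying hens 1, 2 and 3. These 6 had an identifier through the authors' list, which had already called them, so their difference between the groups is no independent evidence. Non-laying hen 3 was thus lowest for these markers and highest for E2F7. In CPM, however, E2F7 differed by only 1.23-fold between the highest and the lowest non-laying hen, with overlapping counting ranges. Per 100 counts of TOP2A, a topoisomerase of dividing cells, E2F8 had 62.1, 109 and 72.2 counts in laying and 14.2, 13.0 and 37.6 counts in non-laying hens. E2F8 was therefore less reduced in laying hens than TOP2A. The paper lists TOP2A among its most down-regulated genes in this contrast, so the outcome follows in part from the choice of partner. The part of dividing cells in the level of either factor was not tested.

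MYB encodes the founding member of its family, a factor of blood progenitors that also acts early in multiciliated cells of mouse airway (chromosome 3, 55871891 to 55897055). Its level was 2.15, 2.93 and 2.94 CPM in laying hens 1, 2 and 3, against 7.75, 7.34 and 17.2 CPM in non-laying hens 1, 2 and 3. Non-laying hen 3 had more than the other non-laying hens, and the laying hens were close together. The log2 fold change was -2.01 (SE 0.41), the smallest of the 5 lower genes.

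MYB had similar proportions to some genes known from ciliated cells and leukocytes in all 6 hens. Per 100 counts of WDR78, which encodes a protein of motile cilia, MYB had 114, 97.9 and 113 counts in laying hens 1, 2 and 3, against 97.7, 102 and 99.9 counts in non-laying hens 1, 2 and 3. Per 100 counts of PTPRC, which encodes the leukocyte antigen CD45, it had 58.5, 57.3 and 51.2 counts in laying and 63.9, 51.9 and 50.6 counts in non-laying hens. The highest over the lowest hen was 1.17 for WDR78, 1.24 for CFAP65, another gene of motile cilia, and 1.26 for PTPRC. These were the 3 lowest of 171 named genes with at least 20 counts in every hen, and the median over the 9772 genes of that depth was 9.46. All named genes were in the authors' list of genes that differ between the groups, as was MYB. The median is therefore no baseline for them, and the closeness is no evidence of a link to a cell type. For DNAAF1 and CCDC39, the 2 of 10 motile cilia markers with an identifier, the ratio was 1.66 and 2.40. For GMNC, which starts the ciliated cell program, it was 3.06. That value rests on laying hen 3, at 293 per 100 GMNC counts, against 95.9 to 135 in the other hens. GMNC had only 18 and 15 counts in laying hens 1 and 3, below the minimum of 20. MYB itself had 24 counts in laying hen 1, with a counting range of 1.38 to 3.2 CPM. Small differences between these ratios therefore carry no weight. Genes of other cells were about as close as CCDC39 or closer, with 1.52 for COLEC12, a scavenger receptor, and 2.41 for LUM of the stroma, whereas TOP2A was at 33.6. The summed level of those 2 cilia markers was 5.92 to 14.6 CPM in laying and 30.6 to 63.2 CPM in non-laying hens, and PTPRC, the only 1 of 9 leukocyte markers with an identifier, was at 3.68 to 5.75 and 12.1 to 34.1 CPM. The part of either cell type in the MYB level was not tested.

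Of 12 regulators of the multiciliated cell program, 4 had an identifier through the authors' list, which had already called them. All 4 were called lower here, against 3.70% of all tested genes. Besides MYB these were GMNC (log2 fold change -2.15, SE 0.53), DEUP1, which builds deuterosomes (-2.40, SE 0.57), and PLK4, the kinase of centriole duplication (-3.56, SE 0.29). GMNC, MYB, DEUP1 and PLK4 had their highest count in non-laying hen 3, at 762, 955, 464 and 1441. In CPM all 4 were also highest in that hen. The same hen was highest of its group in CPM in 48.4% of the genes called lower and 42.7% of all tested genes. That place is therefore common and does not set these 4 genes apart.

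**Figure D3:**
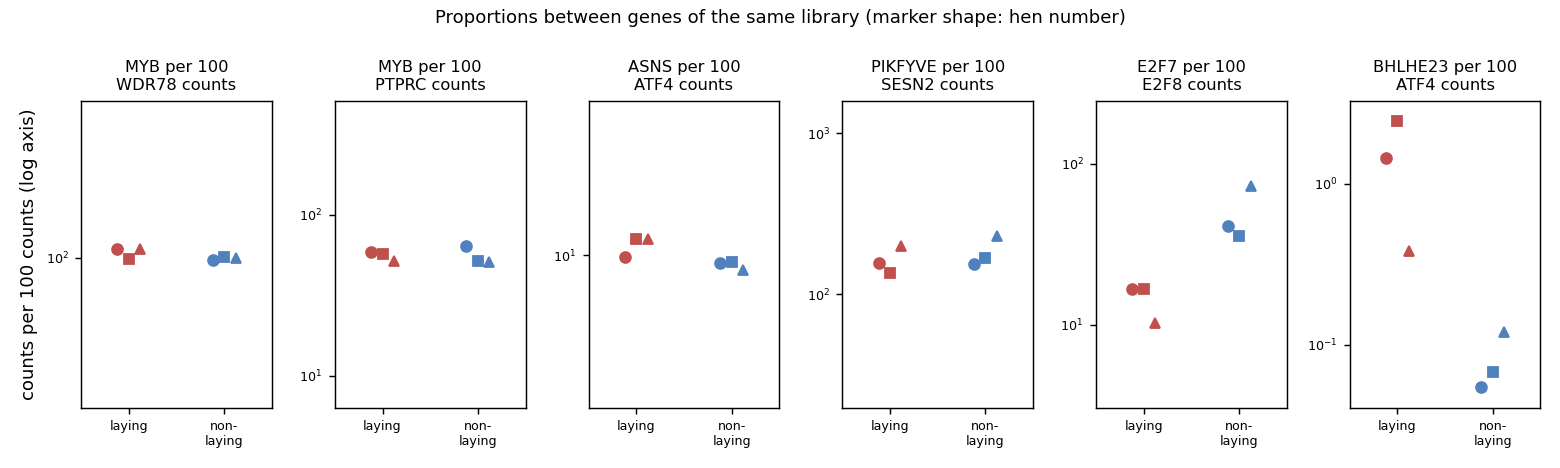
Counts of 1 gene per 100 counts of another in the same library (log axis, every panel with the same span), with laying hens in red, non-laying hens in blue and the marker shape giving the hen number. The proportions of MYB to WDR78 and to PTPRC vary least, by 1.17 and 1.26 between the highest and the lowest hen. E2F7 to E2F8 and BHLHE23 to ATF4 are apart between the groups, and so, by a small margin, is ASNS to ATF4. E2F7 had only 3, 4 and 4 counts in laying hens 1, 2 and 3, so its laying values have a wide counting error.

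The proportions between genes of a library do not depend on the scaling of the libraries. The pairs given here are from 61 that were computed, and they were chosen after the values were seen. Of the 5 members with at least 20 counts in every hen, each was also set against the 171 named genes, 855 pairs in all, and all named genes are from the authors' list. For ATF4 the highest over the lowest hen was least for SLC17A9 (1.48) and SLC22A18 (1.53), neither in the list of its target genes. ASNS was next with 1.56, at 9.71, 12.6 and 12.7 counts per 100 of ATF4 in laying and 8.98, 9.09 and 8.16 in non-laying hens, without overlap. The other target genes with an identifier lay between 1.91 (PSAT1) and 13.3 (SLC7A11). PHGDH, PSPH, SLC7A11 and SLC1A4 per ATF4 were also apart between the groups. PIKFYVE was closest to SESN2 with 1.70, ZZEF1 to OSGIN2 with 1.63 and NR4A2 to CLIP2 with 2.08. BHLHE23 took another course than ATF4: per 100 ATF4 counts it had 1.45, 2.45 and 0.379 counts in laying and 0.0541, 0.0673 and 0.119 counts in non-laying hens.

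MYBL1, the MYB relative that drives meiosis and the precursors of piRNA in mouse spermatocytes (chromosome 2, 115545509 to 115568286), had counts of 2, 8 and 2 in the laying hens. The non-laying hens 1, 2 and 3 had 104, 133 and 86 counts. In CPM these were 0.179, 0.5 and 0.134 in laying and 2.66, 4.48 and 1.55 in non-laying hens, without overlap. The log2 fold change was -3.35 (SE 0.66), and it was -4.19 without laying hen 2, which held most of the laying counts. Against MYB its proportion was uneven, from 4.55 to 17.0 counts per 100 in laying and from 9.01 to 61.0 in non-laying hens.

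SOX30, a SOX family factor required in mouse for spermatids to mature (chromosome 13, 11311536 to 11318167), was detected with a single count in laying hens. That count was in laying hen 2, and the 95% counting ranges of the 0 counts in laying hens 1 and 3 reach up to 0.331 and 0.247 CPM. The non-laying hens 1, 2 and 3 had 33, 13 and 48 counts, or 0.844, 0.438 and 0.867 CPM, and each was above those limits. The counting range of non-laying hen 2, 0.233 to 0.749 CPM, however reached below them. Relative to the TMM-scaled library sizes, the pooled level in non-laying hens was 31.9 times that in laying hens, with an exact 95% counting interval of 5.59 to 1273. Relative to the unscaled totals the ratio was 107 (18.8 to 4277). The fitted log2 fold change of -4.70 (SE 0.92) depends on the prior count that the fit adds, and it was -7.45 without laying hen 2, where no laying count remained.

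MYBL1 and SOX30 are known from male germ cells, and 3 of the 16 germ cell genes linked to MYBL1 in mouse had an identifier through the authors' list. Beside MYBL1 these were PIWIL1, a binder of piRNA, with 4, 0 and 13 counts in laying and 229, 147 and 171 counts in non-laying hens, and CCNA1, a cyclin of male meiosis, with 17, 31 and 21 against 233, 326 and 879 counts. PIWIL1 had a log2 fold change of -3.49 (SE 0.84) and CCNA1 of -2.75 (SE 0.42). Both were called lower, as they already were in the authors' list, against 3.70% of all tested genes. Their groups did not overlap in CPM, as was so with laying hens lower for 17.6% of all tested genes.

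**Figure D4:**
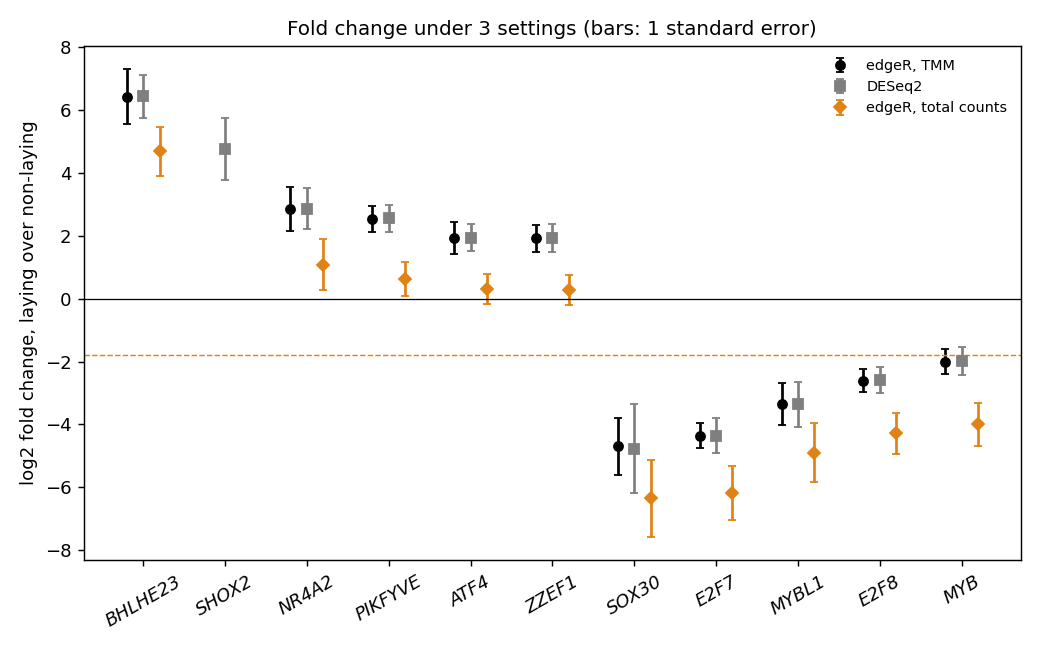
Log2 fold change, laying over non-laying, of the 11 genes under edgeR with TMM, DESeq2 and edgeR on unscaled total counts, with bars of 1 standard error and n = 3 hens per group. The dashed line is the median of all tested genes on unscaled counts, -1.80, and SHOX2 has a value under DESeq2 only. The other 10 genes keep their side of 0, but on unscaled counts ATF4, PIKFYVE and ZZEF1 come to within 0.62 of it.

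The direction of the 10 genes that could be fitted under each scaling did not change, but the size of the higher ones did. SHOX2 had too few counts for these fits. On unscaled total counts the log2 fold change was 4.68 for BHLHE23 and 1.08 for NR4A2. For PIKFYVE, ATF4 and ZZEF1 it was 0.62, 0.30 and 0.27. The lower genes were further from 0 on that scale, from -6.35 (SOX30) and -6.18 (E2F7) to -4.00 (MYB). The 5 lower genes were also without overlap in RPKM, as were 82.9% of all tested genes, so on that scale a lower level in every laying hen was the common case.

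In CPM the lower genes did not share an order of hens, but part of that order rests on small differences and on the scaling. Non-laying hen 3 was the highest of its group for E2F7, MYB and SOX30, and non-laying hen 2 for E2F8 and MYBL1. For SOX30 non-laying hens 3 and 1 were nearly equal, at 0.867 and 0.844 CPM, and for E2F7 the counting ranges overlapped. In RPKM non-laying hen 3 was highest for E2F7, E2F8, MYB and SOX30, and non-laying hen 2 for MYBL1. The share of all genes with that order in RPKM was not computed. Over the 463 genes called lower, non-laying hen 3 was highest in 48.4% and non-laying hen 2 in 26.1%, and over all tested genes in 42.7% and 30%, with non-laying hen 1 in 25.5% and 27.3%. The stroma markers COL3A1 and LUM, 2 of 8 with an identifier, were summed at 254 to 279 CPM in laying hens and at 2046, 1427 and 1032 CPM in non-laying hens 1, 2 and 3. Most of that sum was COL3A1, while LUM had 81.1, 56.8 and 75.0 CPM in non-laying hens 1, 2 and 3. In RPKM the sum was 938, 389 and 821 in these hens, so its order depends on the gene and the scaling. Both markers had an identifier through the authors' list, which had already called them. The part of stroma in the lower genes was not tested.

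A pair of genes from the authors' list, MAFF and BHLHA15, was just outside the selection, because only the study's supplementary description names them as such factors. MAFF, a small Maf protein that pairs with other leucine zipper factors, had 31.6, 39.3 and 14.8 CPM in laying and 7.16, 5.29 and 7.01 CPM in non-laying hens, and a log2 fold change of 2.14 (SE 0.36). BHLHA15 (MIST1), which scales up the secretory apparatus of gland cells, had 18.7, 4.18 and 1.4 CPM in laying hens 1, 2 and 3, against 0.869, 1.55 and 0.903 CPM in non-laying hens. Laying hen 3 was below non-laying hen 2, so the groups overlapped, and the log2 fold change was 2.87 (SE 0.84), or 1.35 without laying hen 1. Just inside the selection, ATF4 and ZZEF1 had the smallest fold change in size, 1.92 each.

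The partners of the members were covered thinly, since only listed genes carry a name. The authors had already called each listed gene, so the calls below are no independent evidence, and 1.28% of all tested genes were called higher. Of 31 helix-loop-helix genes, 4 had an identifier, and BHLHE23 and ID3, an inhibitor of such factors (log2 fold change 3.83, SE 0.72), were called higher. ID1 (2.68, SE 0.80) and BHLHA15 were not called. ID3 is the gene that the supplementary table names Id3 but describes as ID1, so its identity is uncertain. Of 26 immediate early factors, 2 had an identifier, NR4A2 and MAFF, and both were called higher. MAFF, SRXN1 and SLC7A11 were the 3 of 18 small Maf and NRF2 response genes with an identifier and were called higher. In the secretory pathway list, 2 of 37 had one, and CREB3L2, a factor of the secretory pathway, was called higher (2.20, SE 0.44). E2F7 and E2F8 were the only 2 of 18 E2F regulators, SHOX2 the only 1 of 20 homeobox factors and SOX30 the only 1 of 19 SOX genes with an identifier. For the 15 steroid receptors and coregulators none had one, so these were not analysed here.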

How the data were processed

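Reads had been trimmed by the authors (Prinseq) and, in Array Studio 10, mapped to Galgal 5.0 and assigned to genes of Ensembl release 94. Whether counting used strand is not given in the sources used here. They deposited estimated counts, not normalized, with 5.98% to 8.84% of the values in a library not whole, and RPKM values, relative to gene length and library total. The authors' deposited list of called genes also holds their fold changes, p-values and group means, which were not used. Its positions and names, and names from the supplementary table, were used.

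Here the counts were rounded, filtered by filterByExpr, scaled by TMM and compared by edgeR 4.0.16 (glmQLFTest, two-sided, no covariates, 3 against 3 hens) in R 4.3.3. Calls needed a change of more than 3-fold together with an adjusted p (Benjamini-Hochberg) below 0.05. Standard errors from edgeR were the absolute log2 fold change divided by the root of F. Nothing says that hens shared cages or batches, and p-values measure only the spread between these hens. On simulated data with 200 of 12252 genes changed, the fit recovered 200, with 3 false calls. The changed genes there were well counted, all differed by the same fold, and every gene had the same variability with no outlying hen. The simulation therefore checks the code only and does not cover members with few counts or a wide spread between hens.

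Alternatives were DESeq2 1.42.0 and its size factors in edgeR, total counts, TMM without the 20 most abundant genes, all genes with at least 1 count, genes averaging 10 counts or more, log2 RPKM plus 1 or 0.1 in limma 3.58.1, each hen left out, and a replicate block. Every member, and each gene of the lists with an identifier that was called or is related to a member, was named. Genes named for their proportions to a member were chosen after their values were seen. The members and lists were chosen with earlier results of these data known. Only genes in the authors' list carry names, so no list was tested. Python 3.11.15 was used with pandas 2.3.3, numpy 2.4.6, scipy 1.17.1 and, for figures, matplotlib 3.10.9. No sequences are printed, and 1 gene that matched the selection is not reported here.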

Additional observations from a re-analysis of the deposited data

How the results depend on the processing

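Of 156 values of the 11 genes' log2 fold changes under alternatives, 0 reversed, 127 moved by less than the spread between hens and 29 by more. That spread was 1 SD of log2(CPM + 0.1) in the group where it was larger, a lenient limit for genes that vary between hens. For BHLHE23, 4.68 on total counts against 6.42 thus counted as a move by less. SHOX2 was compared with the fit of all genes with at least 1 count, since it was not tested otherwise. Under edgeR with TMM, 160 genes were called higher, 463 lower and 9 of the 11 members. Total counts gave 47 higher and 7849 lower, DESeq2 294 and 715, limma on log2(RPKM + 1) 28 and 3817 with 4 members, and limma on log2(RPKM + 0.1) 44 and 6996. DESeq2 called all 11 members. The authors had made their list with DESeq2, and the members came from that list, so this count is no independent evidence. Of the 8 ATF4 target genes, 1 was called on total counts and 1 in either limma fit. With each hen left out in turn, 7 to 227 genes were called higher, 8 to 458 lower, 1 to 9 members, 0 to 8 ATF4 targets and 0 to 16 E2F targets. The fewest were without laying hen 1 or 2, where 1 member (E2F7) was called, and 5 members were called without non-laying hen 1. The cause was not tested. The correlation of deviations from the group means was 0.255, -0.07 and 0.064 for hens that shared replicate number 1, 2 and 3. It was -0.209 to 0.125 for hens with different numbers. With so few hens these values cannot show whether replicate numbers pair the hens. With the replicate number as a block 274 genes were called lower, 123 higher, 6 members, and 8 of the 16 E2F targets, against 14 without it. Counts near 3 limit SHOX2, SOX30, MYBL1 and E2F7.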
